A study of Mus musculus with 18 samples.

Results

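Interferon-stimulated genes (ISGs) are the genes that cells switch on when interferon reaches their surface. 9 of them, *Isg15*, *Usp18*, *Ifit1*, *Ifit3*, *Oasl2*, *Rsad2*, *Bst2*, *Gbp2* and *Irf7*, were taken by symbol from the 55453 symbols that both count tables list, and each was compared between mutant and wild type aortae within 2 mouse experiments. In the HDR (homology-directed repair) experiment, the aortae came from mice aged 12 weeks, labelled C57BL/6, that were wild type (5 libraries) or homozygous for a CCT>GTC substitution in the *Tspan2* promoter (sg/sg, 5 libraries). In the PE2 experiment, they came from mice aged 8 weeks, labelled FVB/N/B6(Cg)-Tyrc-2J/J, that were wild type (4 libraries) or homozygous for a C>G change made at the same element with prime editor 2 (peg/peg, 4 libraries). Both edits hit a CArG box, the DNA element bound by serum response factor, so that the study could ask what this element does for *Tspan2* and whether other transcripts changed with it. Per the study's methods, each aorta was cleaned of surrounding tissue and sequenced on its own, though fat cell transcripts were still found (see the adipocyte markers below). The labels give 3 females and 2 males in each HDR genotype, 3 females and 1 male (replicate 4) in PE2 wild type, and 4 females in peg/peg. The HDR count columns (WT_2 to WT_6, Mut_2 to Mut_6) carry the genotype and a number of their own, so that the labels tie no sex to a column. Sex was not read from the counts, and no HDR fit holds a term for it. All edited mice descend from founders selected by genotype, made from FVB/NJ oocytes fertilized by B6(Cg)-Tyr2J/J males and bred to C57BL/6J, so that segments of parental chromosomes may travel with an edit. Age, labelled strain and depth differed between the experiments and cannot be told apart from the kind of edit.

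Type I interferons (the alpha and beta families) signal through the receptor made by *Ifnar1* and *Ifnar2* and the kinases *Jak1* and *Tyk2*, and many of their target genes carry an interferon-stimulated response element (ISRE) in the promoter. Interferon gamma uses another receptor, and many of its target genes carry a gamma-activated site (GAS). Healthy vessels are known to carry a low standing level of this programme, to which smooth muscle, endothelium, fibroblasts and resident macrophages can all contribute.

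The promoter sequence of 8 of the 9 genes, all but *Usp18*, was found in RefSeq (build GRCm38.p6, 250 bases before to 50 bases after each start). The ISRE core was searched as GAAANNGAAA on both strands, with overlapping matches counted separately. It was present in 6 of the 8 windows, against 3.44% of all 32851 promoter windows of that length. The stretches are shown because they hold the core that these 6 genes share, with matches in capitals and every sequence written 5′ to 3′ along its gene. They lie at chr4:156200850-156200921 (*Isg15*, minus strand), chr19:34640760-34640838 (*Ifit1*, plus strand), chr19:34583348-34583441 (*Ifit3*, plus strand), chr12:26456538-26456597 (*Rsad2*, minus strand), chr8:71537562-71537627 (*Bst2*, minus strand) and chr3:142620579-142620638 (*Gbp2*, plus strand).
Isg15: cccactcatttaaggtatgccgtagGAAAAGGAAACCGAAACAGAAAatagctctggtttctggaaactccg
Ifit1: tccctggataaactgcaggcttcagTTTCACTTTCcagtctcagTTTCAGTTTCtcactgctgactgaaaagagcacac
Ifit3: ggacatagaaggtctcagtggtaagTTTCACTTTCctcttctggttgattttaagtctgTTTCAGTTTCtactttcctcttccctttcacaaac
Rsad2: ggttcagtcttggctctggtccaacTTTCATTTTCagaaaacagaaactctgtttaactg
Bst2: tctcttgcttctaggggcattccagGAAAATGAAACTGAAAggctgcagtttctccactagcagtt
Gbp2: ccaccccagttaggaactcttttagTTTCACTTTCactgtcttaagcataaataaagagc
*Isg15* held 3 overlapping cores between 78 and 57 bases before its start, *Ifit1*, *Ifit3* and *Bst2* held 2 each, and *Rsad2* and *Gbp2* held 1. The longer run GAAANNGAAANNGAAA was found in *Isg15* and *Bst2*, against 0.116% of all windows. Only *Bst2* among the 8 held the GAS letters TTCNNNGAA, against 8.3% of all windows, and that match overlapped its first ISRE core. None of these letters were in the windows of *Irf7* and *Oasl2*, which says nothing of other elements there. Among 50 other type I ISGs with a promoter in the table, 23 (46.0%) held the core, and among 16 genes of the interferon gamma list 11 (68.8%) did. These matches are letters and not measured binding.

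As a check of the genotype labels, *Tspan2* was measured first. It was 209 ± 60.1 CPM (SD, n = 5; CPM is the read count scaled to a common library size after TMM normalisation) in HDR wild type and 24.9 ± 8.12 (n = 5) in sg/sg, a log2 fold change of -3.07 (SE 0.27, edgeR adjusted p = 0.00226). In the PE2 experiment it was 218 ± 45.0 (n = 4) and 20.0 ± 6.74 CPM (n = 4), a log2 fold change of -3.45 (SE 0.29, edgeR adjusted p = 0.0292). Depth was 17290992 to 24880385 counts per HDR library and 38820265 to 44895615 per PE2 library. Smooth muscle markers, the identity check for aorta, summed to 16010 to 35870 CPM in HDR and 27211 to 61451 in PE2 libraries, and all 8 of them had counts. peg/peg replicate 3 stood apart from the other PE2 libraries: its skeletal muscle markers summed to 1190 CPM (at most 25.3 elsewhere in PE2), its cardiac markers to 623 (at most 182) and *Ly6d*, a lymphoid and epithelial gene, reached 148 CPM (at most 8.65). In the HDR experiment, library WT_6 had the highest macrophage marker sum.

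All 9 genes passed the filter on low counts in both experiments, and every library had at least 14 counts of each. Levels between genes were compared as CPM per kilobase of annotated exon. In HDR wild type, *Gbp2* was highest at 25.2 ± 4.87 (SD, n = 5), followed by *Bst2* at 17.0 ± 2.73, *Ifit3* at 8.66 ± 4.55, *Isg15* at 2.81 ± 0.228, *Ifit1* at 2.34 ± 0.292, *Oasl2* at 1.73 ± 0.587, *Rsad2* at 1.60 ± 0.671, *Irf7* at 1.48 ± 0.194 and *Usp18* at 0.920 ± 0.183. Neighbours in this order overlapped in their libraries, except at the steps from *Bst2* to *Ifit3*, from *Ifit3* to *Isg15* and from *Irf7* to *Usp18*. In PE2 wild type the order began with *Bst2* at 40.5 ± 6.82 (SD, n = 4), *Gbp2* at 18.5 ± 2.92 and *Isg15* at 7.06 ± 0.812, which did not overlap each other. It went on with *Ifit3* at 4.64 ± 1.60, *Irf7* at 2.38 ± 0.661, *Oasl2* at 2.04 ± 0.482, *Rsad2* at 1.91 ± 0.806, *Ifit1* at 1.76 ± 0.650 and *Usp18* at 1.37 ± 0.168, where *Ifit3* and *Irf7* were separate and the other neighbours overlapped. *Usp18* was thus the lowest of the 9 in both sets of wild type mice, and *Bst2* and *Gbp2* were the 2 highest.

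Between genotypes, the 9 genes sat slightly below wild type in sg/sg and slightly above it in peg/peg, and none of these differences passed the test. In the HDR experiment 8 of 9 had a log2 fold change below 0, against 49.1% of all genes tested, with a median of -0.15 (all genes 0.003). The median deviation of the 9 genes from their genotype mean had an SD of 0.20 over the HDR libraries and 0.32 over the PE2 libraries. This SD is a spread of single libraries and not the error of a difference between group means. The genotype medians therefore cannot be weighed against it directly. 0 of 9 were called at an edgeR adjusted p under 0.05, and DESeq2 and limma-voom called 0 as well. By edgeR 0.00609% of 16423 tested genes were called, which is 1 gene, *Tspan2* itself. At an unadjusted p under 0.05, edgeR had 1 of 9 lower, *Isg15* (1.63% of all genes) and 0 higher (0.353%), while DESeq2 and limma-voom had 2 each, *Isg15* and *Irf7*. In the PE2 experiment 8 of 9 were above 0, against 52.2% of all genes, with a median of 0.18 (all genes 0.01). There too 0 of 9 were called by edgeR, DESeq2 or limma-voom. The only gene that edgeR called was again *Tspan2* (0.0061% of 16401 genes). At an unadjusted p under 0.05, edgeR had 2 of 9 higher (3.04% of all genes) and 0 lower (1.27%), *Gbp2* and *Ifit3*, and the other tools had *Ifit1* as well, 3 each. These genes tend to vary together from library to library, so that 8 of 9 is not 8 separate observations. The lists below were measured in the same libraries, and their counts stand against the all-gene shares given here. In a whole vessel, fewer cells of a type and less RNA per cell cannot be told apart.

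**Figure D1:**
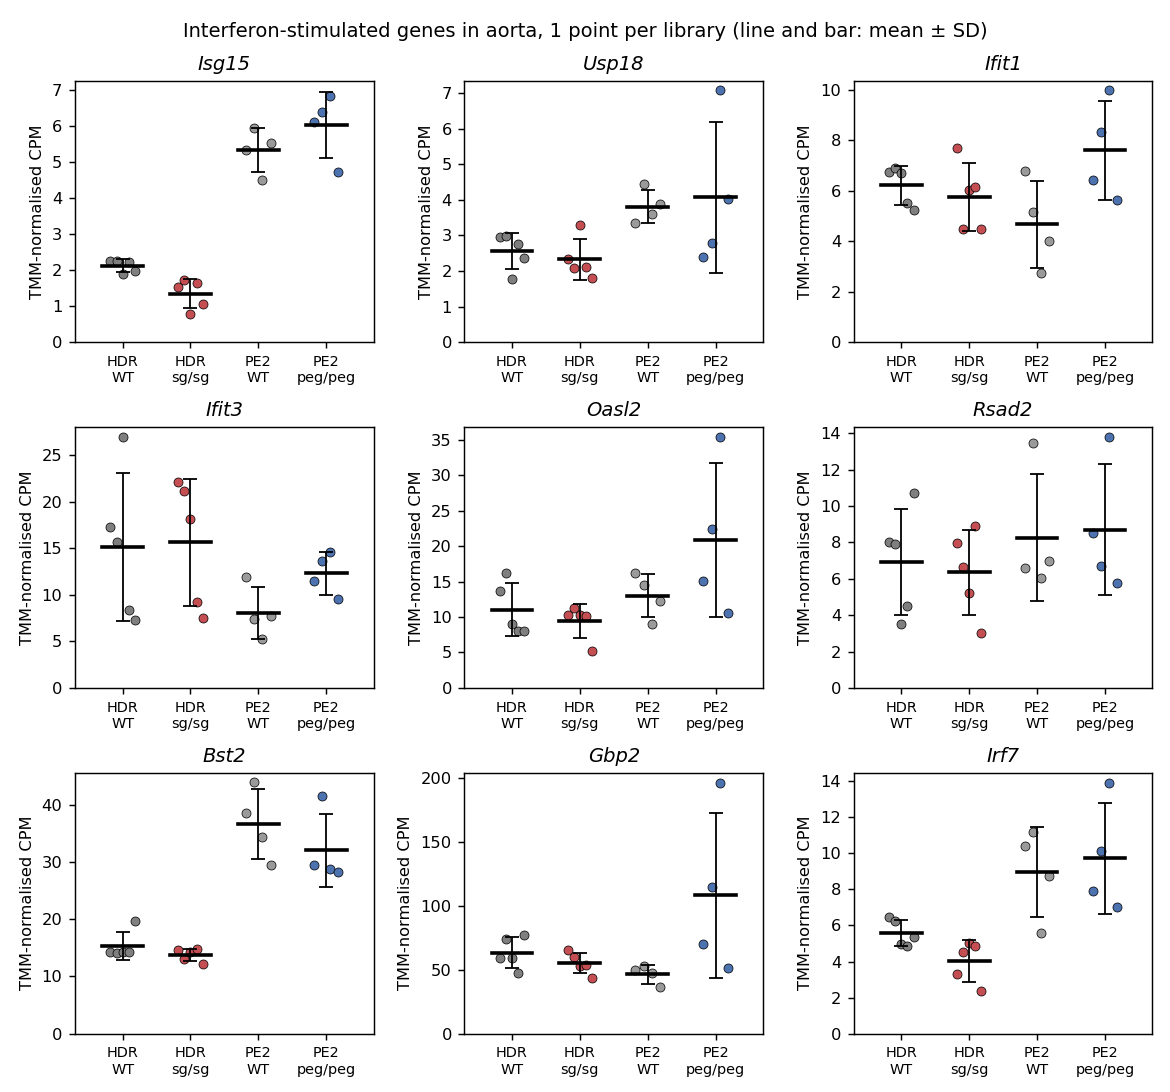
TMM-normalised CPM (y axis, linear from 0) of each of the 9 genes in every library, by experiment and genotype (x axis), with the mean and SD in black (n = 5 per HDR group, n = 4 per PE2 group). The HDR sg/sg points of *Isg15* all lie below the HDR wild type points. A single peg/peg library, replicate 3, is the highest of the PE2 points in 8 panels, such as *Gbp2* at 196 CPM.

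*Isg15* encodes a ubiquitin-like protein that is joined to other proteins during the antiviral response and is also secreted. In the 5 HDR wild type libraries (WT_2 to WT_6) it measured 2.26, 2.27, 1.90, 2.22 and 1.99 CPM, and in Mut_2 to Mut_6 it measured 1.53, 1.74, 0.792, 1.64 and 1.06 CPM. Every sg/sg library was below every wild type library, which held for 1 of the 9 genes and for 0.195% of all genes tested. The means were 2.13 ± 0.172 and 1.35 ± 0.405 CPM (SD, n = 5 each), a log2 fold change of -0.65 (SE 0.24, unadjusted p = 0.0208, edgeR adjusted p = 1.00). Counts behind these values were low, 14 to 48 per library. Leaving out any 1 library left the log2 difference between -0.75 and -0.51. In PE2 aortae *Isg15* was at 5.35, 5.96, 4.50 and 5.54 CPM in wild type replicates 1 to 4 and at 6.13, 6.41, 6.85 and 4.72 CPM in peg/peg replicates 1 to 4. The groups overlapped, since the lowest peg/peg library lay within the wild type range (log2 fold change 0.18, SE 0.18, edgeR adjusted p = 0.871).

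*Usp18* encodes the protease that takes ISG15 off its targets and also damps the type I receptor. It was the least abundant of the 9 per exon length, at 1.76 to 2.98 CPM in HDR wild type and 1.81 to 3.28 CPM in sg/sg, with overlapping groups (log2 fold change -0.14, SE 0.23). In PE2 wild type it measured 3.34, 4.43, 3.60 and 3.87 CPM, and in peg/peg 2.40, 2.80, 7.07 and 4.01 CPM. Replicate 3 alone was above all wild type libraries, and replicates 1 and 2 were below them. Its log2 fold change of 0.10 (SE 0.35) became -0.32 without replicate 3. A long noncoding RNA on the other strand, *Gm44148*, overlaps *Usp18* and had 115 counts over all HDR and 64 over all PE2 libraries.

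The other genes of the ISG15 conjugation machinery were listed with these 2: the activating enzyme *Uba7*, the conjugating enzyme *Ube2l6* and the ligases *Herc6* and *Trim25*. All 6 were tested, all 6 had a value below 0 in HDR (median -0.18) and all 6 a value above 0 in PE2 (median 0.11), with 0 called in either. *Ube2l6* was at 19.9 ± 2.43 CPM in PE2 wild type and 25.2 ± 3.21 in peg/peg (SD, n = 4 each), a log2 fold change of 0.34 (SE 0.13, unadjusted p = 0.0294, edgeR adjusted p = 0.861). In HDR it was -0.21 (SE 0.19).

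*Ifit1* and *Ifit3* encode proteins with tetratricopeptide repeats that bind foreign RNA or assist in doing so. They are neighbours on chromosome 19 in a family with near-identical copies, and how the counting shared such reads is not stated, so their counts carry that uncertainty. *Ifit1* ranged from 5.24 to 6.90 CPM in HDR wild type and from 4.47 to 7.70 in sg/sg, with the sg/sg libraries on both sides of the wild type range (log2 fold change -0.11, SE 0.18). In PE2 wild type replicates 1 to 4 it measured 6.80, 5.16, 2.74 and 4.02 CPM and in peg/peg 6.42, 8.35, 9.99 and 5.66 CPM. Replicates 2 and 3 of peg/peg were above all wild type libraries and the other 2 were not. The difference was 0.70 on the log2 scale (SE 0.31, unadjusted p = 0.0538, edgeR adjusted p = 0.861).

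*Ifit3* was the most variable of the 9 in HDR aorta. It measured 17.3, 15.7, 27.0, 8.33 and 7.27 CPM in WT_2 to WT_6 and 22.2, 21.1, 18.1, 9.26 and 7.50 CPM in Mut_2 to Mut_6. In each genotype the libraries numbered 5 and 6 were the lowest, and the means of 15.1 ± 7.95 and 15.6 ± 6.81 CPM were close (log2 fold change 0.05, SE 0.39, from -0.13 to 0.36 with 1 library left out). In the PE2 experiment, wild type libraries were at 12.0, 7.44, 5.27 and 7.72 CPM and peg/peg libraries at 11.5, 13.6, 14.6 and 9.51 CPM. All 4 peg/peg libraries were above 3 of the 4 wild type libraries, with replicate 1 of wild type among them (log2 fold change 0.60, SE 0.26, unadjusted p = 0.0477, edgeR adjusted p = 0.861). By edgeR the unadjusted p was 0.0962 with sex as a covariate and 0.0776 with the replicate block. With 1 library left out the difference ran from 0.44 to 0.84 and this p from 0.00585 to 0.103.

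*Oasl2* encodes a relative of the 2′-5′ oligoadenylate synthetases, which sense double-stranded RNA. Over WT_2 to WT_6 it measured 13.7, 16.2, 9.04, 8.08 and 7.99 CPM and over Mut_2 to Mut_6 it measured 10.3, 11.3, 10.3, 10.1 and 5.27 CPM. 4 sg/sg libraries lay inside the wild type range and Mut_6 lay below it (log2 fold change -0.22, SE 0.25). PE2 wild type had 16.2, 14.5, 9.07 and 12.3 CPM and peg/peg 15.1, 22.5, 35.3 and 10.5 CPM. Replicates 2 and 3 were above all wild type libraries, and replicates 1 and 4 were within their range. The log2 difference of 0.68 (SE 0.37, edgeR adjusted p = 0.861) was 0.29 without peg/peg replicate 3.

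*Rsad2* encodes viperin, a radical SAM enzyme that makes a chain-terminating nucleotide. It ranged from 3.53 to 10.7 CPM in HDR wild type and from 3.03 to 8.88 in sg/sg, and the groups overlapped over most of that range (log2 fold change -0.13, SE 0.34). In PE2 it measured 6.57, 13.5, 6.05 and 6.96 CPM in wild type and 8.51, 6.69, 13.8 and 5.79 CPM in peg/peg. Each PE2 group thus held 1 high library, replicate 2 of wild type and replicate 3 of peg/peg, and the difference of 0.07 (SE 0.36) ran from -0.25 to 0.41 when 1 library was left out.

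*Bst2* encodes tetherin, a membrane protein that holds budding viruses on the cell. It was the steadiest of the 9 in HDR aorta, at 14.3, 14.1, 14.3, 14.3 and 19.7 CPM in WT_2 to WT_6 and 14.6, 13.1, 14.3, 14.7 and 12.2 CPM in Mut_2 to Mut_6. 3 of 5 sg/sg libraries were within the wild type range, WT_6 stood above all others, and the log2 difference was -0.15 (SE 0.12). In PE2 it measured 38.5, 44.0, 34.4 and 29.5 CPM in wild type and 29.4, 41.6, 28.8 and 28.3 CPM in peg/peg. It was the only member with a value below 0 in peg/peg (log2 fold change -0.19, SE 0.17), and its peg/peg replicate 3 was not the highest library.

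*Gbp2* encodes a guanylate-binding protein, a GTPase that acts on the membranes of intracellular pathogens and answers to interferon gamma more than to type I interferon. It was at 59.2, 74.2, 59.4, 47.3 and 77.2 CPM in WT_2 to WT_6 and at 65.2, 60.4, 53.1, 54.1 and 43.8 CPM in Mut_2 to Mut_6, with only Mut_6 outside the wild type range (log2 fold change -0.20, SE 0.15). In PE2 aortae it measured 49.5, 53.3, 47.4 and 36.2 CPM in wild type and 70.0, 115, 196 and 51.6 CPM in peg/peg. 3 of 4 peg/peg libraries were above every wild type library, and replicate 4 was just under the highest of them. The means of 46.6 ± 7.34 and 108 ± 64.4 CPM (SD, n = 4 each) gave the largest difference among the 9 genes, 1.21 on the log2 scale (SE 0.39, unadjusted p = 0.0139, edgeR adjusted p = 0.861), and 0.75 without peg/peg replicate 3. No member had all peg/peg libraries above (1.43% of all genes) or below (1.1%) the wild type libraries.

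*Irf7* encodes the transcription factor that amplifies type I interferon production. In HDR it measured 6.48, 6.24, 4.98, 4.88 and 5.37 CPM in wild type and 3.33, 4.54, 5.03, 4.86 and 2.34 CPM in sg/sg. 4 of 5 sg/sg libraries were below all wild type libraries and Mut_4 was just above 2 of them. The means were 5.59 ± 0.731 and 4.02 ± 1.15 CPM (SD, n = 5 each), a log2 fold change of -0.47 (SE 0.22, unadjusted p = 0.0516, edgeR adjusted p = 1.00). PE2 values were 10.4, 11.2, 5.56 and 8.73 CPM in wild type and 7.88, 10.1, 13.9 and 7.01 CPM in peg/peg, with overlapping groups (0.12, SE 0.28, and -0.11 without peg/peg replicate 3). The end of *Irf7* overlaps *Phrf1* on the other strand, which had 10709 counts over the HDR libraries and 14591 over the PE2 libraries, and since the strand setting of the counting is not stated, reads from the shared stretch cannot be assigned with certainty.

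**Figure D2:**
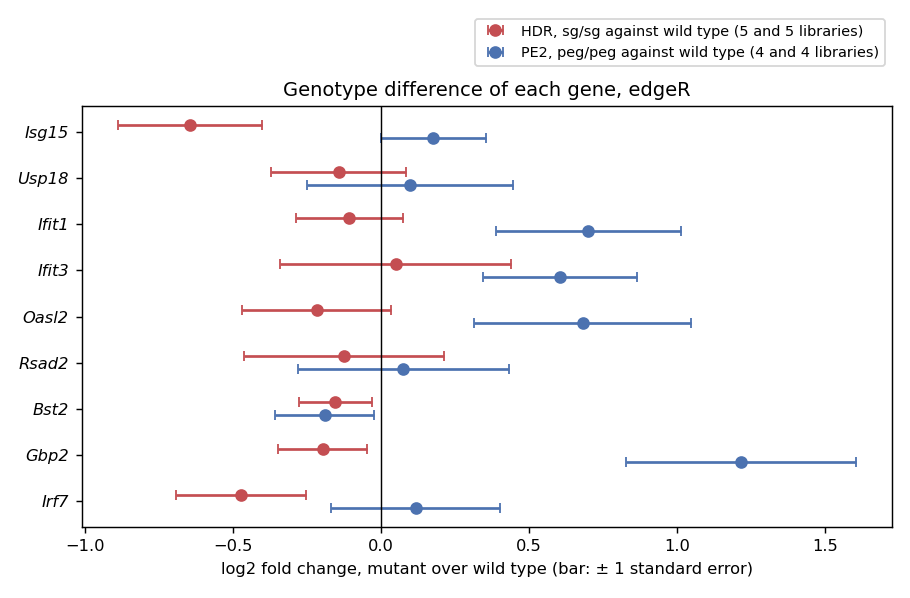
Log2 fold change of mutant over wild type (x axis) of each gene (y axis), from edgeR, with 1 standard error on each side, for HDR (red, 5 and 5 libraries) and PE2 (blue, 4 and 4 libraries). In HDR 8 of 9 points are left of 0, down to -0.65 for *Isg15*, and in PE2 8 of 9 are right of 0, up to 1.21 for *Gbp2*.

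The difference between the 2 experiments was tested as an interaction over all 18 libraries. For 8 of 9 genes the genotype difference in HDR was below that in PE2, the exception being *Bst2* (0.06, SE 0.20). By edgeR, 0 of 9 were called (0% of 18094 genes), and 3 of 9 had an unadjusted p under 0.05 in this direction (3.91% of all genes). These were *Gbp2* (-1.38, SE 0.40, unadjusted p = 0.00275, edgeR adjusted p = 0.870), *Isg15* (-0.80, SE 0.30, unadjusted p = 0.0153, edgeR adjusted p = 0.911) and *Ifit1* (-0.79, SE 0.34, unadjusted p = 0.0327, edgeR adjusted p = 0.954). Without peg/peg replicate 3, *Gbp2* was at -0.94 (SE 0.29) and *Isg15* at -0.74 (SE 0.32), *Ifit1* at -0.65 (SE 0.34) no longer had an unadjusted p under 0.05, and *Rsad2* (0.13) and *Usp18* (0.17) changed sign. Over the settings tried for this contrast, 2 to 4 members had an unadjusted p under 0.05 and 0 were called, while 18 of the 21 settings called no gene at all.

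Within a genotype, the 9 genes tended to be high or low in the same libraries, above all in PE2. peg/peg replicate 3 was the highest of the 8 PE2 libraries for 8 genes (all but *Bst2*), and its 9 genes summed to 327 CPM, against 115 to 159 in wild type and 127 to 227 in the other peg/peg libraries. peg/peg replicate 4 was the lowest of its group for 8 genes (all but *Usp18*), and replicate 3 of wild type was the lowest of all PE2 libraries for 5. Without peg/peg replicate 3, 5 of 9 genes were above 0 and 4 (*Irf7*, *Rsad2*, *Usp18* and *Bst2*) below, with a median of 0.10. In the HDR experiment Mut_6 was the lowest of all 10 libraries for 6 genes (*Ifit1*, *Irf7*, *Oasl2*, *Rsad2*, *Bst2* and *Gbp2*), and without it 7 of 9 were below 0, the median was -0.06 and 0 of 9 had an unadjusted p under 0.05. Without WT_6, 8 of 9 were below 0, with a median of -0.16, but not the same 8, since *Rsad2* was at 0.087 and *Ifit3* at -0.13. The spread among libraries of a genotype, as the biological coefficient of variation from edgeR, had a median of 0.250 over the 9 genes in HDR (all genes 0.225) and 0.364 in PE2 (all genes 0.275).

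**Figure D3:**
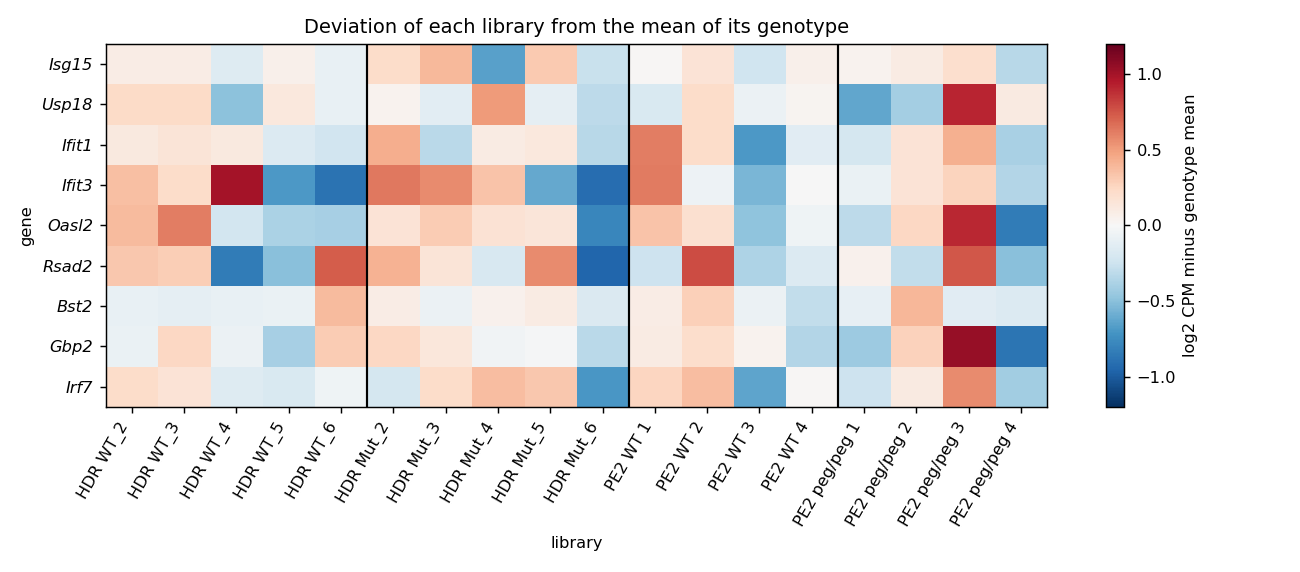
Deviation of each gene (y axis) in each library (x axis) from the mean of its genotype, as log2 CPM (colour), with black lines between the 4 groups. The column of peg/peg replicate 3 is above its group for 8 of 9 genes and that of HDR Mut_6 is below its group for 9 of 9.

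The correlation of each gene with the mean of the other 8, after centring on genotype, put *Irf7* (Pearson r = 0.960), *Oasl2* (0.955) and *Ifit1* (0.860) closest to the group over the 8 PE2 libraries and *Bst2* (0.299) and *Usp18* (0.379) farthest from it. Without peg/peg replicate 3, *Irf7* and *Oasl2* stayed at 0.943 and 0.933, while *Usp18* was at -0.088 and *Bst2* at 0.631, so that the low value of *Bst2* rests on that library. Over the 10 HDR libraries the closest were *Oasl2* (0.815), *Rsad2* (0.768) and *Irf7* (0.688), and *Isg15* was farthest (0.224). These r values describe libraries that share depth and tissue composition, and carry no test.

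Of the genes that are no member, those whose levels went most like the mean of the 9 were *Anpep*, *Arrb1*, *Prex1*, *Def6* and *Sdc3* in HDR (Pearson r 0.948 to 0.964 over 10 libraries, 14792 genes searched). In PE2 they were *Arid3a*, *Spire1*, *Nop2*, *Maea* and *Arsk* (r 0.976 to 0.979 over 8 libraries, 13950 genes searched). With so few libraries and so many genes, values this high describe the top of a long list.

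Macrophage markers had values in the same directions. In HDR aorta 11 of 11 had a value below 0 and 9 of 11 an unadjusted p under 0.05 (median -0.71, 0 called by edgeR), and their summed level was 396 to 1073 CPM in wild type and 300 to 524 in sg/sg. *C1qa*, a complement gene of resident macrophages, was at 41.4 ± 22.5 and 22.3 ± 3.81 CPM (SD, n = 5 each), a log2 fold change of -0.89 (SE 0.30, edgeR adjusted p = 1.00), and the receptor *Csf1r* at 64.4 ± 23.0 and 41.6 ± 9.43 CPM (-0.63, SE 0.23, edgeR adjusted p = 1.00). WT_6 held the highest macrophage sum and the highest *Rsad2*, *Bst2* and *Gbp2* of the HDR libraries. It also held the lowest *Ifit3* of these libraries (7.27 CPM) and the lowest *Ifit1* (5.24) and *Oasl2* (7.99) of wild type. Only 3 of the 9 genes were above their genotype mean in WT_6. In PE2 11 of 11 macrophage markers were above 0 (median 0.59, 0 at an unadjusted p under 0.05), with sums of 212 to 804 CPM in wild type and 402 to 1231 in peg/peg, the highest again in replicate 3. peg/peg replicates 1, 2 and 4, at 539, 557 and 402 CPM, lay within the wild type range. Every one of the 11 markers had counts in both experiments. The part of macrophages in the values of the 9 genes was not tested.

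**Figure D4:**
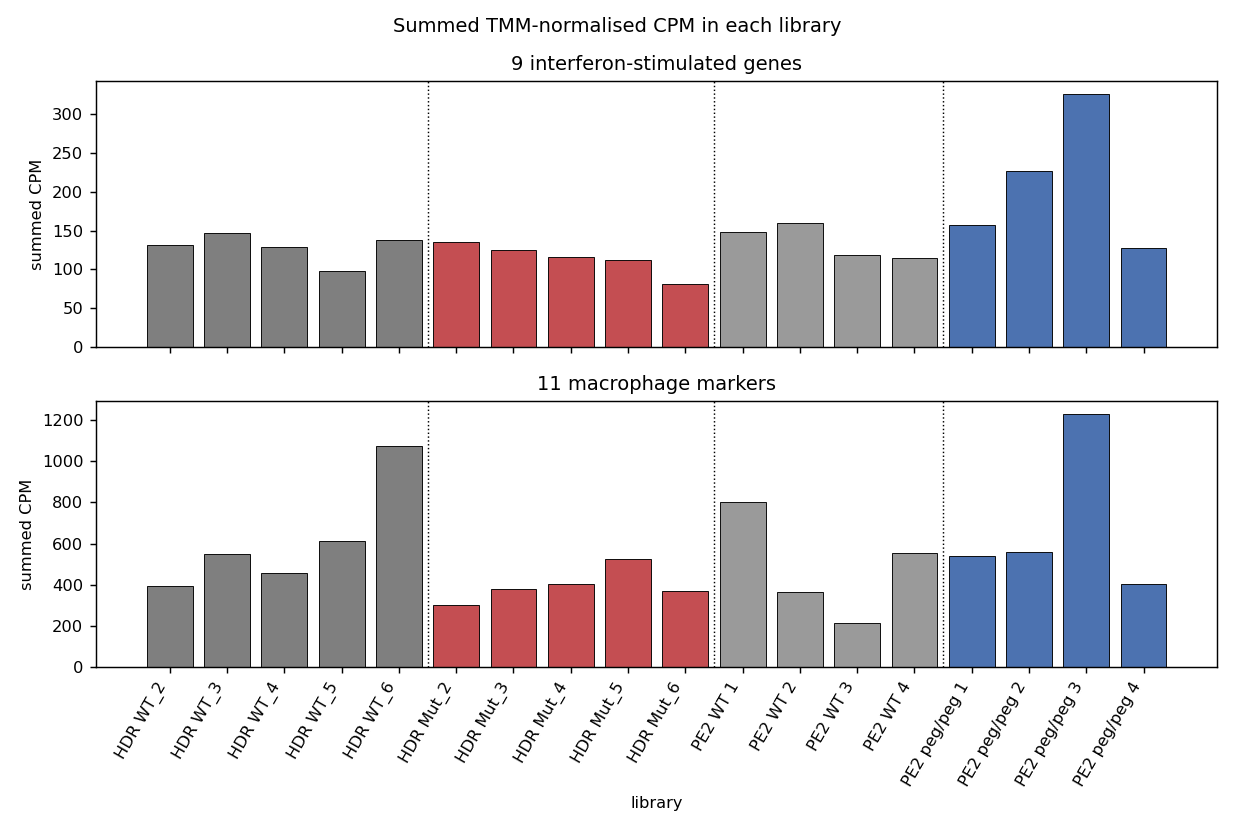
Summed CPM (y axis, linear from 0) of the 9 genes (top) and of 11 macrophage markers (bottom) in each library (x axis), grey for wild type, red for sg/sg and blue for peg/peg. peg/peg replicate 3 has the highest bar in both panels, 327 and 1231 CPM.

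Plasmacytoid dendritic cells, the professional source of type I interferon, had markers summing to 1.59 to 11.3 CPM in HDR and 4.37 to 11.7 in PE2, except 153 CPM in peg/peg replicate 3. Of that sum 148 CPM were *Ly6d*, while *Siglech*, the defining marker, was at 3.01 CPM there and at 0.576 to 1.77 in the other PE2 libraries. Fibroblast markers, like those of macrophages, were below 0 for 6 of 7 in HDR (median -0.21) and above 0 for 7 of 7 in PE2 (median 0.56). Endothelial markers were above 0 for 7 of 8 in HDR (median 0.06) and below 0 for 8 of 8 in PE2 (median -0.20), with the lowest sum, 654 CPM, in peg/peg replicate 3. Adipocyte markers were below 0 for 6 of 6 in both. Their sums were 298 to 2012 CPM in HDR libraries and 34.4 to 2508 CPM in PE2 libraries, with the lowest in peg/peg replicate 3. Cardiac markers were below 0 for 4 of 5 in HDR (median -0.45, 2 at an unadjusted p under 0.05, 0 called). In PE2, they were above 0 for 6 of 6 (median 2.83, 4 at an unadjusted p under 0.05, 0 called). Their PE2 sums were 52.9 to 78.4 CPM in wild type and 69.9, 182, 623 and 117 CPM in peg/peg replicates 1 to 4. Skeletal muscle markers in PE2 were above 0 for 4 of 7 (median 2.67, 3 at an unadjusted p under 0.05, 0 called), with the highest sum also in replicate 3. T cell markers were below 0 for 6 of 8 there (median -0.83, 4 at an unadjusted p under 0.05, 0 called), with *Rag1*, a recombinase of developing lymphocytes, at -4.10 and the coreceptor *Cd8a* at -2.23. Their sums were 3.82 to 18.6 CPM in wild type and 2.84 to 6.57 in peg/peg, and at most 17.2 in HDR. B cell markers summed to at most 14.1 and neutrophil markers to at most 10.9 in any library. The part of these cells was not tested either.

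Upstream of the 9 genes, the interferons themselves were nearly silent. Of 21 ligand genes, 16 had a count in HDR, 43 counts in all 10 libraries together (12 over the wild type and 31 over the sg/sg libraries), and 3 had a count in PE2, 5 in all 8 libraries, so that none could be tested. The 6 receptor genes were all tested, with 0 called, 0 at an unadjusted p under 0.05 and medians of -0.08 in both experiments. Among 9 signal transducers 0 were called and 0 passed an unadjusted p of 0.05, with medians of -0.05 in HDR and 0.02 in PE2. *Irf8*, a factor of myeloid cells, was at 3.94 ± 0.963 and 10.1 ± 12.4 CPM in PE2 wild type and peg/peg (SD, n = 4 each), with the highest value in replicate 3 (log2 fold change 1.36, SE 0.73).

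Of 17 sensors and adaptors of foreign nucleic acid, 13 were below 0 in HDR (median -0.08) and 13 above 0 in PE2 (median 0.09). 3 had an unadjusted p under 0.05 in HDR, all lower: *Tlr9*, which senses DNA in endosomes, *Unc93b1*, which escorts such receptors, and *Irf5*, a factor downstream of them. *Irf5* was at 4.70 ± 2.12 and 2.61 ± 0.931 CPM (SD, n = 5 each), a log2 fold change of -0.84 (SE 0.33, edgeR adjusted p = 1.00), and *Unc93b1* at 22.8 ± 7.83 and 15.7 ± 2.56 CPM (-0.54, SE 0.21, edgeR adjusted p = 1.00). Both were highest in WT_6.

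Inhibitors of the pathway were split evenly, with 6 of 14 tested above 0 and 8 below in each experiment. *Socs1*, which blocks the JAK kinases and is itself induced by interferon, had the opposite sign in PE2. It was at 9.11 ± 2.07 CPM in wild type and 4.21 ± 0.691 in peg/peg (SD, n = 4 each), and every peg/peg library was below every wild type library (log2 fold change -1.11, SE 0.22, unadjusted p = 0.000941, edgeR adjusted p = 0.861).

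A longer list of other type I ISGs leaned like the 9. In HDR 57 of 62 tested were below 0 (49.1% of all genes), with a median of -0.13. By edgeR 3 of them had an unadjusted p under 0.05 (1.63% of all genes). In PE2 49 of 66 were above 0 (52.2% of all genes), with a median of 0.09, and 4 had an unadjusted p under 0.05 (3.04% of all genes). These genes were measured in the same libraries as the 9, so that their lean is not separate evidence. 0 were called by edgeR in either experiment. *Oas1a*, an RNA sensor, was at 1.24 ± 0.163 and 0.671 ± 0.170 CPM in HDR, with all sg/sg libraries below wild type (log2 fold change -0.88, SE 0.25, unadjusted p = 0.00382, edgeR adjusted p = 1.00), and *Oas2* was at 4.07 ± 0.700 and 2.47 ± 0.824 CPM (-0.72, SE 0.26). The third, *Ifi27l2a*, was at 112 ± 101 and 43.2 ± 12.5 CPM (-1.38, SE 0.50), with its highest value, 279 CPM, in WT_6. In PE2, *Ifit1bl1* was at 0.182 ± 0.0917 and 0.520 ± 0.366 CPM (1.50, SE 0.57, edgeR adjusted p = 0.861), and *Ifit2* at 20.6 ± 1.09 and 24.7 ± 2.57 CPM (0.26, SE 0.10). *Ifitm1* had a value of 4.04 (SE 1.62) that came from peg/peg replicate 3, at 83.5 CPM against at most 1.63 in every other PE2 library. The remaining gene was *Ube2l6*, given above with the ISG15 conjugation machinery. The lists thus share genes, as with *Socs1*, which is on the inhibitor and the interferon gamma lists, and their counts are not separate.

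The GTPases and regulators induced by interferon gamma were below 0 for 18 of 23 in HDR (median -0.21) and above 0 for 16 of 24 in PE2 (median 0.36), with 0 called. *Cxcl9*, a chemokine, was at 4.23 ± 1.90 and 2.61 ± 0.668 CPM in HDR (-0.69, SE 0.31, edgeR adjusted p = 1.00), and the class II transactivator *Ciita* at 7.13 ± 2.20 and 4.30 ± 2.08 CPM (-0.73, SE 0.37). *Gbp2b* had the smallest p of the list in PE2. This neighbour of *Gbp2* was at 0.170 ± 0.0433 CPM in wild type and 2.19 ± 1.14 in peg/peg (SD, n = 4 each; 28 and 364 counts in all), a log2 fold change of 3.66 (SE 0.48, unadjusted p = 5.95e-05, edgeR adjusted p = 0.325). Every peg/peg library was above every wild type library, and its highest value was in replicate 2, not 3. In HDR it had 17 counts in wild type and 19 in sg/sg over 5 libraries each and was not tested.

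The Gbp genes lie in clusters on chromosomes 3 and 5, and they were split by chromosome after their values had been seen, so the split carries no test. In PE2 the 5 genes on chromosome 3 (*Gbp2*, *Gbp2b*, *Gbp3*, *Gbp5* and *Gbp7*) were all above 0, with a median of 0.77. *Gbp5*, which assembles inflammasomes, was at 14.6 ± 2.36 and 24.9 ± 10.9 CPM (0.77, SE 0.31), and *Gbp3* at 19.1 ± 2.97 and 30.1 ± 13.5 CPM (0.66, SE 0.31). The rise was not uniform over libraries. For *Gbp3*, *Gbp5* and *Gbp7*, peg/peg replicates 1 to 3 were above every wild type library. Replicate 4 was below all of them for *Gbp3* (15.5 CPM, lowest wild type 16.0) and *Gbp7* (12.0, lowest wild type 13.5). For *Gbp5* it was within their range (13.1). Of the 6 genes on chromosome 5 (*Gbp4*, *Gbp6*, *Gbp8*, *Gbp9*, *Gbp10* and *Gbp11*), 2 were above 0 and 4 below, with a median of -0.12. In HDR both clusters had a median of -0.15. The chromosome 3 cluster starts 39.8 to 39.9 Mb from the start of *Tspan2* on the same chromosome (annotation of GRCm38, Gencode M21). The haplotype of that interval was not analysed here, and in this design the edited allele and any parental segment that travels with it cannot be told apart. The family holds closely related copies, so that reads shared between them add uncertainty to each gene.

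**Figure D5:**
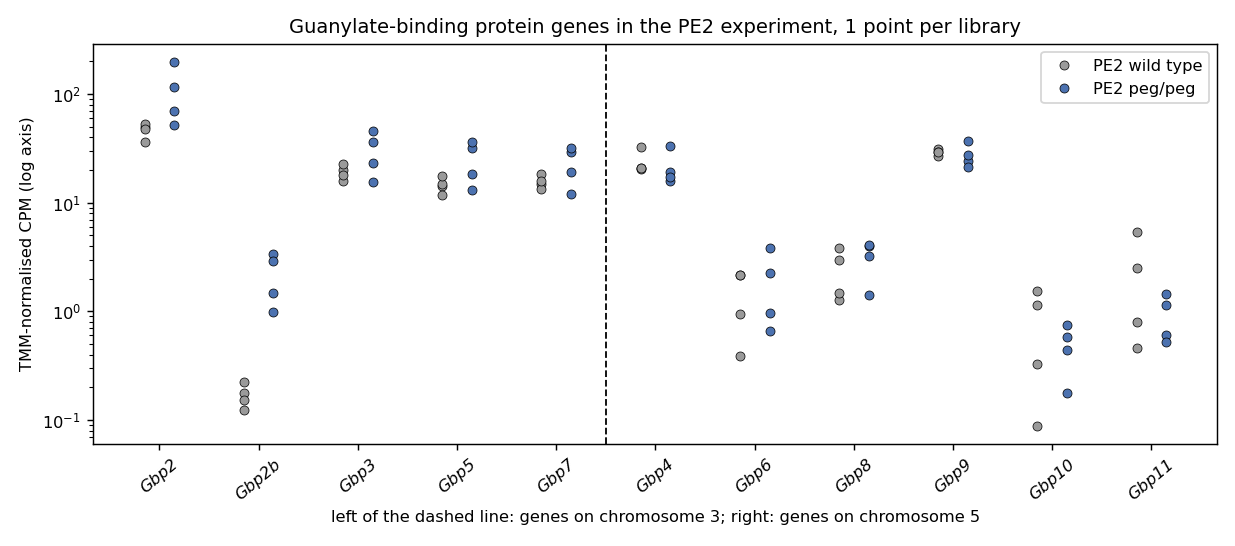
TMM-normalised CPM (y axis, log scale) of the 11 Gbp genes (x axis) in PE2 wild type (grey) and peg/peg (blue), with 1 point per library. To the left of the dashed line are the 5 genes on chromosome 3, where *Gbp2b* has all peg/peg points above wild type, and to the right the 6 genes on chromosome 5, where the groups overlap.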

How the data were processed

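Bulk RNA-seq of 18 aortae was analysed from the tables of raw counts per gene symbol that the authors deposited, 1 table per experiment. Per the labels and the study's methods, the authors trimmed reads with fastp, aligned them with STAR 2.7.0f to GRCm38 with Gencode M22 and counted them with featureCounts (Subread 1.6.4). The labels and the methods differ on library kit and read length, and the strand setting is not given in the sources used here. The deposited normalized tables were not used. The 9 genes and all other gene lists were chosen with earlier results of these data known.

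Each experiment was fitted alone in edgeR 4.0.16 (R 4.3.3) with TMM normalisation, filterByExpr and the quasi-likelihood F test on genotype, and p-values were adjusted by Benjamini-Hochberg over all genes tested, with 0.05 as the threshold. CPM are TMM-normalised, and per-gene log2 deviations use a prior count of 2. The interaction was an edgeR contrast over 18 libraries. Alternatives were DESeq2 1.42.0, its size factors in edgeR, limma-voom (limma 3.58.1), other filters and a looser threshold. Sex and the replicate block were tried in PE2 alone. A block from the HDR column numbers was added after the data had been seen, and each library was left out in turn. Genes named were chosen from the members, *Tspan2*, the 2 of smallest p per list and the 5 most correlated non-members with a mean of at least 1 CPM. Further genes, chosen after their values were seen, were the rest of the Gbp genes, the remaining ISGs and sensors with an unadjusted p under 0.05, *Ly6d*, *Siglech* in single libraries and the overlapping genes. Promoters came from RefSeq and positions from Gencode M21. Pipelines were tested on simulated data. P-values measure the spread between libraries, each from 1 aorta.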

Additional observations from a re-analysis of the deposited data

Results flagged for a closer look

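In 4 groups 1 library stood apart from the rest of its group by Dixon's ratio at the 95% level, over 9 genes in 4 groups, where chance gives about 1 in 20. *Oasl2* was lowest in HDR Mut_6, at 5.27 CPM, with the next sg/sg library at 10.1 CPM (ratio 0.810). *Bst2* was highest in HDR WT_6, at 19.7 CPM, with the next wild type library at 14.3 CPM (ratio 0.954). In PE2 wild type, *Rsad2* was highest in replicate 2, at 13.5 CPM, with the next library at 6.96 CPM (ratio 0.877). In peg/peg, *Bst2* was highest in replicate 2, at 41.6 CPM, with the next library at 29.4 CPM (ratio 0.911). peg/peg replicate 3, the highest library for 8 genes, was in none of these.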

How the results depend on the processing

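0 of 9 genes were called under every alternative run in HDR (17), in PE2 (17) and for the interaction (21). Under 9 of these in PE2 and 18 for the interaction no gene at all was called, so that 0 of 9 says nothing of the 9 genes there. In the main edgeR fit of each experiment only the edited *Tspan2* was called, so that 0 of 9 says little there either. The most genes called under any alternative were 4 in HDR and 30 in PE2. At an unadjusted p under 0.05 there were 0 to 2 members in HDR, 1 to 4 in PE2 and 2 to 4 for the interaction, and the median stayed below 0 in HDR (-0.25 to -0.06 with 1 library left out) and above 0 in PE2 (0.09 to 0.41). Leaving out PE2 wild type replicate 4 and using the female libraries alone are the same fit, and of 279 single-gene values over distinct fits 263 kept their direction and 16 did not. With 1 library left out, *Ifit3* in HDR ran from -0.13 to 0.36 and *Rsad2* from -0.29 to 0.087, and in PE2 *Irf7* ran from -0.11 to 0.24, *Rsad2* from -0.25 to 0.41 and *Usp18* from -0.32 to 0.27. In PE2, *Rsad2* was -0.0036 in the female libraries alone and *Usp18* was -0.0069 with limma-voom. The cause was not tested. The lowest adjusted p of *Gbp2* in PE2 over the alternatives was 0.405 and the highest 0.993. The labels do not say whether a PE2 replicate number marks a shared litter or day, and the main fit took no pairs. Same-numbered PE2 libraries had correlations of 0.0163, -0.232, -0.0567 and -0.290. With so few libraries these values cannot decide whether the samples were paired. With the replicate block 0 members were called, the median was 0.17 and *Usp18* was -0.032. The numbers 2 to 6 in the HDR column names are not those of the labels. Libraries that share such a number had correlations of 0.574, 0.117, -0.205, 0.425 and 0.303, so they were not taken as pairs. Libraries of different numbers were related as well, such as WT_2 with Mut_3 (0.500) and Mut_6 (-0.579), and WT_5 with Mut_6 (0.486) and Mut_2 (-0.479). Across genotypes, libraries numbered 2 and 3 were positively related to each other and negatively to those numbered 5 and 6. The cause of this grouping was not tested. A replicate block from the column numbers, added after the data had been seen, gave 0 members called, 2 at an unadjusted p under 0.05 (*Isg15* and *Irf7*) and a median of -0.15. With it the SE of *Ifit3* was 0.15 (0.39 in the main fit) and that of *Oasl2* 0.17 (0.25). The SE of *Rsad2* was 0.37 (0.34) and that of *Usp18* 0.25 (0.23). Depth limits *Isg15* and *Usp18* most, at 14 to 63 counts per HDR library.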
